A study of Mus musculus with 8 samples.

Results

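Imprinted genes are described here in RNA-seq counts from adult mice that lack most of the sodium channel NaV1.2. HOM denotes mice with the gene-trap insertion on both Scn2a alleles (Scn2agt/gt), which cuts the Scn2a transcript short, and WT denotes their wild-type littermates. Both genotypes came from heterozygous breeding pairs, carry the strain label C75BL6, and have 4 libraries each, numbered as replicates 1 to 4. The labels call the RNA source neuron and do not tie samples to individual mice, so the spread behind each p-value is that of these samples and may be technical. Members were chosen by name: 39 known imprinted genes were listed, and those with 0 counts in all 8 libraries were dropped. This left 35 of the 54446 rows of the count matrix, of which 32 had enough counts to be tested among 17395 tested genes. The list was drawn up with earlier results of this comparison known, so counts over it describe the list and support nothing beyond it.

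Genomic imprinting is the expression of a gene from a single parental copy, set in most but not all cases by DNA methylation laid down in the egg or the sperm. Imprinted genes lie in clusters, often with a long noncoding RNA expressed from the copy of either parent and protein-coding genes expressed from the opposite copy, and many act in growth, metabolism and brain function. In the Dlk1-Dio3 cluster the paternal copy gives the proteins Dlk1, Rtl1 and Dio3, and the maternal copy gives a long run of noncoding RNA (Meg3, Rian, Mirg) that carries small nucleolar RNAs and microRNAs. The counts hold no allele information, so expression from the maternal and the paternal copy cannot be told apart. In bulk RNA, fewer cells of a type and less RNA per cell cannot be told apart either.

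Levels are CPM, read counts relative to library size with TMM scaling to make libraries comparable, and total counts per library lay between 27993412 and 37538988. Scn2a itself averaged 128 ± 15.1 CPM in HOM and 435 ± 51.6 CPM in WT (SD, n = 4 each), a log2 fold change of -1.77 (SE 0.10, edgeR quasi-likelihood test, adjusted p = 1.16e-05). Neuronal markers summed to 5143 to 5397 CPM in HOM and 5693 to 6635 CPM in WT. Of the 5 tested, 2 were lower (Snap25 and Gad1) and only Rbfox3 was above 0, with Tubb3 at 0. Markers of astrocytes (3732 to 4584 CPM in HOM, 4666 to 5001 CPM in WT) and oligodendrocytes (2948 to 3578 CPM in HOM, 3395 to 5092 CPM in WT) were present too, so the libraries hold more than the labelled neurons. All 5 astrocyte markers were below 0 and 1 was lower (Aqp4). All 5 oligodendrocyte markers were below 0 with an unadjusted p under 0.05 (edgeR), but 0 of 5 passed. Markers of meningeal fibroblasts summed to 52.9 to 79.4 CPM in HOM and 83.5 to 94.7 CPM in WT. All 7 tested were below 0 and 1 was lower (Fn1), with Ogn at 0. Endothelial markers summed to 112 to 148 CPM in HOM and 141 to 194 CPM in WT, with all 5 below 0 and 1 lower (Flt1). Microglial markers summed to 200 to 219 CPM in HOM and 176 to 204 CPM in WT. All 4 tested were above 0 and 1 was higher (C1qa), with P2ry12 at 0. Striatal markers summed to 378 to 556 CPM in HOM and 435 to 504 CPM in WT, with 5 of 6 above 0 and 0 past the threshold. The part of these cell types in the members' values was not tested. Single libraries stood apart as well. HOM replicate 4 had 2 counts over 4 Y-linked genes, against 4452 to 5984 in the other 7 libraries. The 8 choroid plexus markers, of which Kcnj13 was at 0 throughout, summed to 17.6 to 229.8 CPM in HOM and 143.5 to 1685 CPM in WT, with WT replicate 4 highest. All 7 tested had a log2 fold change below 0, and 2 passed as lower (Kl and Aqp1). Results that rest on these libraries are given with and without them. Levels are not compared between genes here, since the counts cover gene bodies of unequal length.

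The promoters of Meg3 and Usp29 are shown because these are the members past the threshold whose window carries the palindrome TGACGTCA, the cAMP response element. The windows run from 250 bases before to 50 bases after a RefSeq start (GRCm38.p6), at chr12:109540746-109541045 for Meg3 and chr7:6730333-6730632 for Usp29, both on the plus strand. Capitals mark TGACGTCA and CCAAT, which do not overlap.
Meg3: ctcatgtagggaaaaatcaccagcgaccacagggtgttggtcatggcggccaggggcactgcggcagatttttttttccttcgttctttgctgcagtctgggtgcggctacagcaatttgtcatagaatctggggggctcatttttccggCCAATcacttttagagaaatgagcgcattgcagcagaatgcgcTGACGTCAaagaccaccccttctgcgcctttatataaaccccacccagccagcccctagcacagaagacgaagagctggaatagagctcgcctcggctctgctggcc
Usp29: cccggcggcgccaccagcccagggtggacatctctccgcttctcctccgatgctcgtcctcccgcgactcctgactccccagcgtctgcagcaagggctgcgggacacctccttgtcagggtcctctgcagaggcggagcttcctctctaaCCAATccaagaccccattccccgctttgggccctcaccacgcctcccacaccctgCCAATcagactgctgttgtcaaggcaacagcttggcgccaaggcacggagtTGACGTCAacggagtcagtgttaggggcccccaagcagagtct
The search covered 53 windows for 30 of the 39 listed genes. Rtl1 and B830012L14Rik, also past the threshold, had no window and were not searched. TGACGTCA stood in 4 of the 53 windows, at Meg3, Usp29, Peg3 and Zdbf2, and in 1.79% of all 32851 mouse windows. Another Meg3 window, at chr12:109545148-109545447, held no match. The Usp29 and Peg3 windows share 263 of their 300 bases, read in opposite directions, and the match lies in the shared stretch. CCAAT stood in 37.4% of all windows. The other motifs searched on both strands, TGACTCA (5.2% of all windows), CACGTG (7.15%), GCGNGGGCG (5.55%) and GCCATCTT (2.75%), were not found in these Meg3 and Usp29 windows. A match is a run of letters and not a measured binding site.

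The microRNA genes of the Dlk1-Dio3 cluster lie along the maternal noncoding transcripts, and 58 hairpins of the RefSeq table fell in the domain, 54 of them on the plus strand with Meg3. They are shown for the rows annotated as microRNA genes that reached an unadjusted p under 0.05 and had an entry in that table, with the seed (bases 2 to 8) in capitals.
mmu-miR-544-5p: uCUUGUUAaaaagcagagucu
mmu-miR-544-3p: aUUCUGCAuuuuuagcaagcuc
mmu-miR-300-5p: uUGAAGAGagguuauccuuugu
mmu-miR-300-3p: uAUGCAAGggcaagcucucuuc
mmu-miR-3070-5p: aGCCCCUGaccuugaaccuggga
mmu-miR-3070-3p: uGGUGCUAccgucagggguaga
The 6 seeds differ from each other, and among the 113 mature names of the domain only miR-3070-2-3p repeats any of them, that of miR-3070-3p. Mature microRNAs are far shorter than the fragments of such libraries, so the rows hold pieces of the long precursor and not the mature molecules.

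Among the 32 tested imprinted genes, 6 were higher in HOM and none was lower at an adjusted p of 0.05 (edgeR quasi-likelihood test, Benjamini-Hochberg over all genes tested), where 5.4% of all genes tested passed, 2.47% higher and 2.94% lower. DESeq2 called 1 member lower, where it called 11.7% of the genes to which it gave an adjusted p, in either direction. An unadjusted p under 0.05 was reached by 12 of the 32 members, against 22.9% of all genes tested. The 6 were Meg3, Rtl1, Mirg and B830012L14Rik of the Dlk1-Dio3 cluster, Usp29 of the Peg3 cluster, and Slc38a4. In the Dlk1-Dio3 cluster 4 of 7 members passed and the median log2 fold change was 0.41. Outside it 2 of 25 passed and the median was -0.04, close to the 0.00 of all genes. Fold changes of all 32 members ran between -0.69 and 1.01, with 14 above 0 and 18 below.

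**Figure D1:**
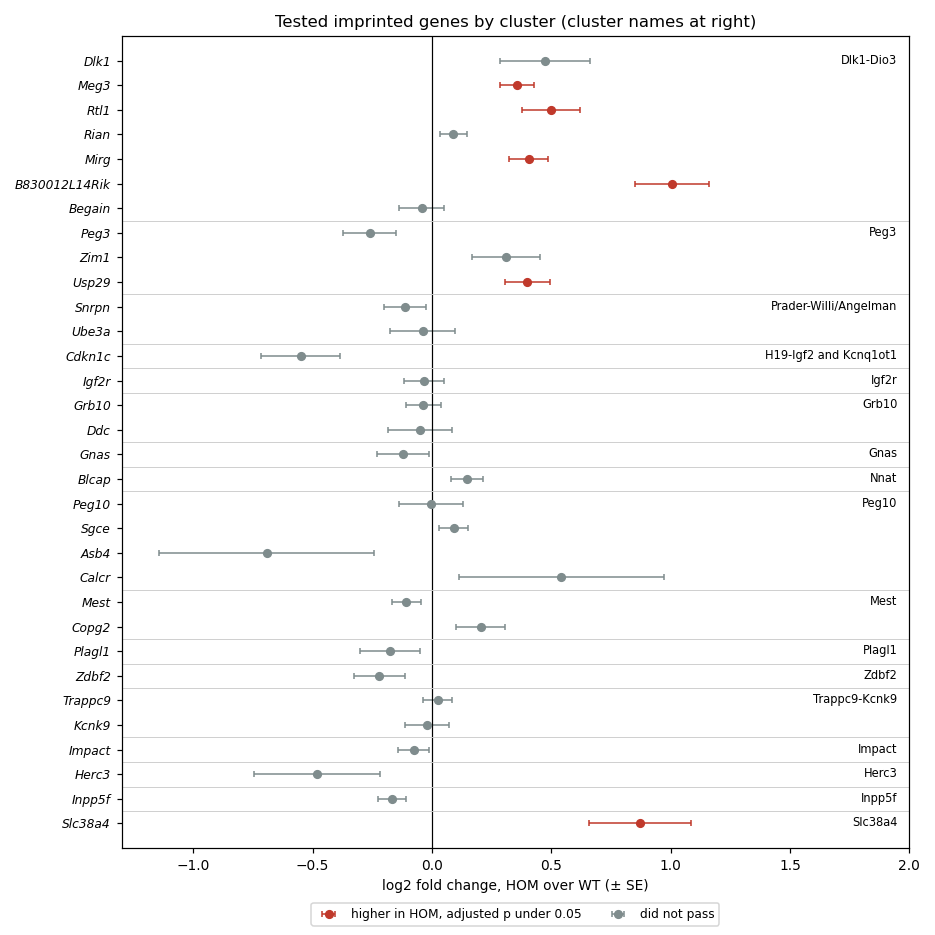
Log2 fold change, HOM over WT, of each of the 32 tested imprinted genes (x axis) by gene and cluster (y axis), with bars of 1 SE from the edgeR fit over 4 libraries a genotype. The 6 genes past an adjusted p of 0.05 are red and all lie above 0, and 4 of them belong to the Dlk1-Dio3 cluster at the top.

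Meg3 is the maternally expressed long noncoding RNA that opens the run (chr12:109541001-109571726, plus strand, GRCm38). It had 4608, 3706, 3976 and 4093 CPM in HOM replicates 1 to 4, against 3262, 3265, 3286 and 2982 CPM in WT replicates 1 to 4. Every HOM library was above every WT library, and the WT values lay close together except for a low WT replicate 4. Meg3 rose by a log2 fold change of 0.36 (SE 0.07, edgeR adjusted p = 0.0205) to 4096 ± 378 CPM in HOM, against 3199 ± 145 CPM in WT (SD, n = 4 each). Genes annotated on top of it share 11.2% of its span. Leaving out HOM replicate 1 or 3, or WT replicate 3 or 4, ended the call, with adjusted p from 0.0562 to 0.0637 and log2 fold changes from 0.30 to 0.38. Without HOM replicate 4 it held (0.37, edgeR adjusted p = 0.0312). When single libraries were left out, 1.02% to 6.74% of all genes tested passed, against 5.4% with all libraries.

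Rian, the next maternally expressed transcript and host of small nucleolar RNAs, had 777.8, 775, 744 and 715 CPM in HOM replicates 1 to 4, against 708, 706, 727 and 688 CPM in WT replicates 1 to 4. The groups overlapped, since HOM replicate 4 was below WT replicate 3. The log2 fold change was 0.09 (SE 0.06, edgeR adjusted p = 0.369), and no removal of a single library brought it past the threshold (adjusted p from 0.214 to 0.539).

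B830012L14Rik, a long intergenic noncoding RNA gene between Rian and Mirg on the same strand, had 5.98, 4.53, 5.30 and 6.24 CPM in HOM replicates 1 to 4, against 2.54, 2.51, 3.40 and 2.57 CPM in WT replicates 1 to 4. The lowest HOM library stood clear of the highest WT library, WT replicate 3. Its mean in HOM was 200.1% of that in WT, a log2 fold change of 1.01 (SE 0.16, edgeR adjusted p = 0.00673), and no other gene shares its span. It was the member with the largest log2 fold change of the 32, and it passed in all 8 removals of a single library (adjusted p from 0.00448 to 0.0285).

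Mirg, the host transcript of the large distal microRNA cluster, had 81.2, 63.7, 69.5 and 78.1 CPM in HOM replicates 1 to 4, against 55.5, 58.7, 52.0 and 54.5 CPM in WT replicates 1 to 4. All 4 HOM libraries were above all 4 WT libraries, with HOM replicate 2 nearest to them. Mirg rose by a log2 fold change of 0.41 (SE 0.08, edgeR adjusted p = 0.0196), a call that ended when HOM replicate 1 or 3 or WT replicate 3 was left out (adjusted p from 0.0540 to 0.0734). According to RefSeq, 14 hairpins lie within Mirg, against 3 within Rian, 1 within Meg3 and 0 within B830012L14Rik.

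Rtl1, a protein gene derived from a retrotransposon and best known from the placenta, is transcribed from the paternal copy on the minus strand, opposite to a maternal transcript that carries microRNAs. Its row had 28.2, 22.9, 18.4 and 25.1 CPM in HOM replicates 1 to 4, against 17.5, 16.9, 17.9 and 14.6 CPM in WT replicates 1 to 4. The groups did not overlap, but HOM replicate 3 was only just above WT replicate 3. The log2 fold change was 0.50 (SE 0.12, edgeR adjusted p = 0.0369), and the call held only without HOM replicate 2 or HOM replicate 3, and the adjusted p was 0.1105 without HOM replicate 1. The counts ignore strand and 7 hairpins lie within its span, so the paternal and the maternal strand cannot be told apart in this row.

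Dlk1, a transmembrane protein related to Notch ligands and expressed from the paternal copy, had 11.2, 8.19, 10.9 and 11.9 CPM in HOM replicates 1 to 4, against 6.60, 7.85, 5.23 and 10.7 CPM in WT replicates 1 to 4. The groups overlapped through HOM replicate 2 and WT replicate 4, the library with the most choroid plexus transcripts. The log2 fold change of 0.47 (SE 0.19) did not pass (edgeR adjusted p = 0.159), while without WT replicate 4 it was 0.68 (adjusted p = 0.0485). Markers of hypothalamic neurons summed to 9.49 to 26.1 CPM in HOM and 6.23 to 13.4 CPM in WT, with 0 of the 6 tested past the threshold and all 6 above 0, and monoaminergic markers to 7.37 to 9.02 CPM in HOM and 7.05 to 8.71 CPM in WT. Their part in the Dlk1 values was not tested.

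Begain, which encodes a postsynaptic protein and lies on the side of Dlk1 away from Meg3, had 158, 169, 175 and 191 CPM in HOM replicates 1 to 4, against 179, 212, 167 and 156 CPM in WT replicates 1 to 4. The ranges lay on top of each other, and the log2 fold change was -0.04 (SE 0.09, edgeR adjusted p = 0.831).

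**Figure D2:**
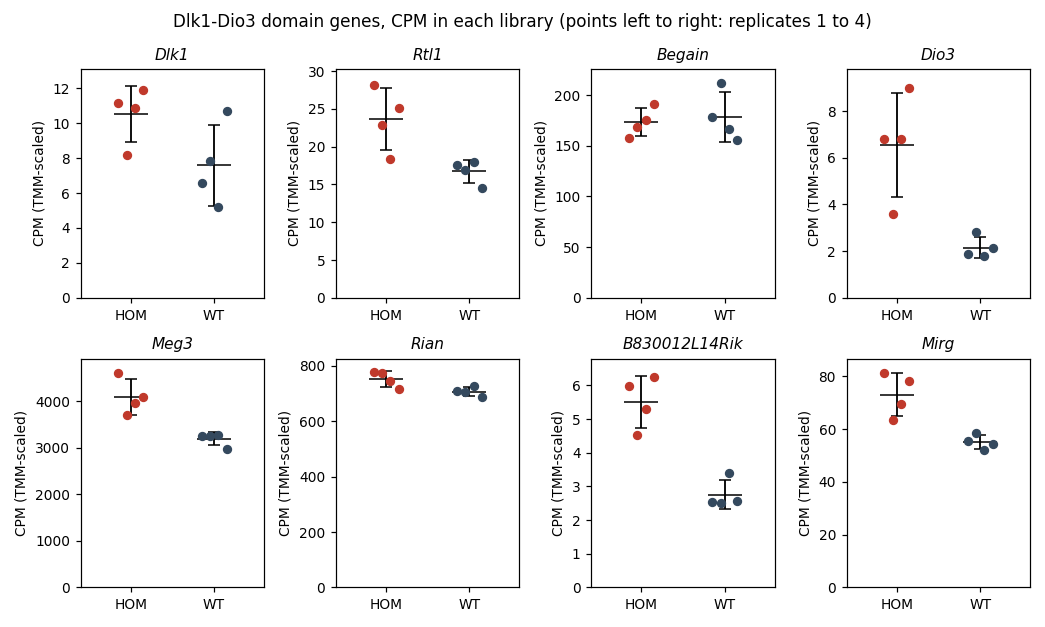
CPM (y axis) of 8 genes of the Dlk1-Dio3 cluster in each HOM and WT library (x axis), points in the order of replicates 1 to 4, with the mean (long bar) and SD of 4 libraries. HOM points lie above all WT points for Meg3, Rtl1, Mirg, B830012L14Rik and Dio3, and overlap them for Dlk1, Rian and Begain.

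Dio3, the deiodinase that inactivates thyroid hormone, closes the domain and was counted among 50 further imprinted genes. It had 6.81, 3.58, 6.79 and 8.98 CPM in HOM replicates 1 to 4, against 1.89, 2.80, 1.79 and 2.12 CPM in WT replicates 1 to 4. HOM replicate 2 was the lowest HOM library here, as it was for Meg3, Mirg, B830012L14Rik and Dlk1. Dio3os, the noncoding gene divergent from Dio3, had 1.58, 1.16, 1.46 and 1.44 CPM in HOM replicates 1 to 4, against 0.243, 0.297, 0.215 and 0.539 CPM in WT replicates 1 to 4. Its log2 fold change was 2.11 (SE 0.30, edgeR adjusted p = 0.00414), and it passed in all 8 removals of a single library, as Dio3 did (log2 fold change 1.61, SE 0.25, edgeR adjusted p = 0.00692).

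All annotated rows from Dlk1 to Dio3 were then read together, a view chosen after the values were seen. The annotation places 118 genes in this stretch of chromosome 12, of which 56 were at 0 in every library and 27 were tested. All 27 had a log2 fold change above 0, between 0.09 and 2.11 with a median of 0.74, where 50.2% of all genes tested were above 0. Of these rows 7 passed, namely Meg3, Rtl1, B830012L14Rik, Mirg, Mir544, Dio3os and Dio3, where 2.47% of all genes tested were called higher. Between genotypes 10 rows did not overlap, where 6.63% of all genes tested had every HOM library above every WT library. The other settings gave 25 to 27 rows above 0 of 26 or 27 tested, and 11 of 11 under the filter of 1 CPM. The 7 rows past the threshold became 1 with the choroid plexus covariate and 3 with the replicate number as a block. Those settings called 0.247% and 2.09% of all genes tested, in either direction. Single removals left 3 rows without HOM replicate 1 or WT replicate 3, 4 without HOM replicate 3, and 5 to 7 otherwise. They called 1.02% to 6.74% of all genes. With replicate 4 of both genotypes left out 3 rows passed (1.93% of all genes). The rows became 9 with library totals (6.5%), DESeq2 (11.7%) and limma-voom (5.5%), and 8 with no filter (3.62%). Neighbouring rows of the maternal run can hold pieces of the same precursor, so they are not independent measurements.

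Rows annotated as microRNA genes made up 15 of the 27. Their log2 fold changes ran from 0.40 to 1.52 with a median of 0.82, and only Mir544 passed (1.52, SE 0.38, edgeR adjusted p = 0.0387). Mir544 had 34, 15, 17 and 26 counts in HOM replicates 1 to 4, against 10, 10, 7 and 3 counts in WT replicates 1 to 4, and the call held in 2 of the 8 removals of a single library. Mir300 had 25, 17, 31 and 38 counts in HOM replicates 1 to 4, against 7, 11, 16 and 12 counts in WT replicates 1 to 4. For Mir300 the scaled levels did not overlap, but the test was not passed (log2 fold change 1.17, SE 0.35, edgeR adjusted p = 0.0690). Mir3070a, with 103 counts in HOM and 50 in WT, overlapped between genotypes (log2 fold change 0.95, edgeR adjusted p = 0.151). Only 21 microRNA rows were tested in the whole table, 15 of them in this domain, and 20 of the 21 were above 0, so these rows offer little to compare with outside it.

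**Figure D3:**
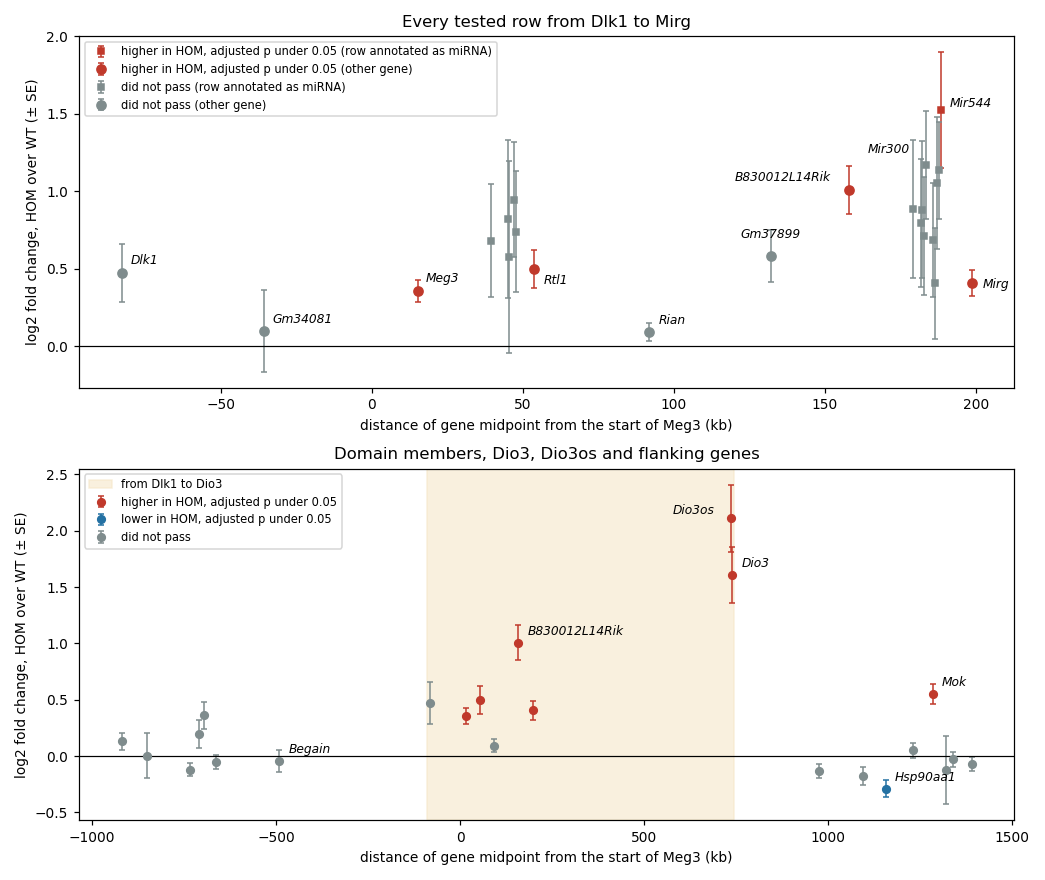
Log2 fold change, HOM over WT, with bars of 1 SE (y axis) against the distance of each gene's midpoint from the start of Meg3 in kilobases (x axis), for every tested row from Dlk1 to Mirg (upper panel) and for domain members, Dio3, Dio3os and flanking genes (lower panel). Rows between Dlk1 and Dio3 all lie above 0, while the flanking genes scatter on both sides of 0 with a median of -0.04. The flanking genes are all annotated as protein-coding, and most rows between Dlk1 and Dio3 are not.

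Genes on either side of the domain that are not known to be imprinted were set beside it. Of 14 flanking genes, Mok was higher and Hsp90aa1 lower, where 5.4% of all genes tested passed in either direction. The median log2 fold change of the 14 was -0.04. All 14 are annotated as protein-coding, while among the tested domain rows only Dlk1, Rtl1 and Dio3 are. Over all protein-coding genes tested the median was -0.01. The part of gene class in the difference between domain and flanking genes was not tested. Mok, which encodes a protein kinase related to MAP kinases, had 24.7, 21.96, 26.01 and 23.9 CPM in HOM replicates 1 to 4, against 19.04, 15.1, 15.5 and 16.2 CPM in WT replicates 1 to 4. It rose without overlap, by a log2 fold change of 0.55 (SE 0.09, edgeR adjusted p = 0.00957), and lies beyond Dio3. Mok passed in all 8 removals of a single library, as B830012L14Rik, Dio3 and Dio3os did. Hsp90aa1, a cytosolic chaperone gene, had 817, 899, 814 and 814 CPM in HOM replicates 1 to 4, against 1029.9, 883, 1068 and 1106 CPM in WT replicates 1 to 4. Hsp90aa1 fell by 0.29 on the log2 scale (SE 0.08, edgeR adjusted p = 0.0480), although HOM replicate 2 was above WT replicate 2. Its call was kept in 2 of 8 removals.

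Genes annotated as long noncoding RNA also took a larger share of raw counts in HOM. These shares do not use the TMM factors, which were 1.017 to 1.030 in HOM and 0.961 to 0.988 in WT. Genes annotated as lincRNA took 1.57% ± 0.0814 of counts in HOM and 1.31% ± 0.0618 in WT, and 1.14% ± 0.0463 in HOM and 0.991% ± 0.0498 in WT with the imprinted members left out (SD, n = 4 each; exact two-sided permutation test over libraries, p = 0.0286 each, the smallest that 4 against 4 allows). Malat1, a nuclear noncoding RNA that is part of both shares, took 0.263% ± 0.0272 of counts in HOM and 0.183% ± 0.0186 in WT. Its log2 fold change was 0.46 (edgeR adjusted p = 0.0196), and the shares without Malat1 were not tested. Miat, a long noncoding RNA (0.36, edgeR adjusted p = 0.0409), was higher too, without overlap between the genotypes. Neat1 had a log2 fold change of -0.04 (edgeR adjusted p = 0.911). Snhg11, a small nucleolar RNA host gene, is annotated as protein-coding and so lies outside these shares. It was higher without overlap as well (0.25, edgeR adjusted p = 0.0387). Of 1033 lincRNA genes tested, 41 were higher and 8 lower, where 2.47% and 2.94% of all genes tested were. Above 0 were 646 of them, where 50.2% of all genes tested were, and their median log2 fold change was 0.11. The part of this class-wide difference in the Meg3, Mirg and B830012L14Rik values was not tested. Of the 4 tested members that do not code for protein 3 were higher, with a median log2 fold change of 0.38, and of the 28 that do 3 were higher, with a median of -0.04.

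Outside the Dlk1-Dio3 cluster, the Peg3 cluster held the next member past the threshold. Usp29, a ubiquitin-specific peptidase gene expressed from the paternal copy, had 41.0, 30.9, 32.9 and 35.9 CPM in HOM replicates 1 to 4, against 27.8, 28.5, 25.2 and 25.1 CPM in WT replicates 1 to 4. The groups did not overlap, and the log2 fold change was 0.40 (SE 0.09, edgeR adjusted p = 0.0330). The call held only without HOM replicate 2 or WT replicate 2, and the other removals gave adjusted p from 0.0541 to 0.101. Peg3, a zinc finger gene that starts within the window shown above and runs the other way, had 357, 421, 382 and 283 CPM in HOM replicates 1 to 4, against 476, 377, 446 and 429.9 CPM in WT replicates 1 to 4. Its groups overlapped and its log2 fold change was -0.26 (SE 0.11, edgeR adjusted p = 0.183). Usp29 and Peg3 are the genes of the shared promoter window, and the part of that window in their values was not tested. Zim1, another zinc finger gene of the cluster but expressed from the maternal copy, had 13.003, 9.63, 10.1 and 9.91 CPM in HOM replicates 1 to 4, against 9.73, 6.86, 7.63 and 10.1 CPM in WT replicates 1 to 4. It overlapped between genotypes (log2 fold change 0.31, SE 0.14, edgeR adjusted p = 0.217).

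Slc38a4 encodes an amino acid transporter of system A and is expressed from the paternal copy in several tissues. It had 66, 54, 56 and 60 counts in HOM replicates 1 to 4, against 26, 28, 35 and 33 counts in WT replicates 1 to 4, or 1.83, 1.90, 1.74 and 1.69 CPM in HOM, against 0.703, 0.923, 1.25 and 1.047 CPM in WT. The HOM values were tight and clear of WT, and the log2 fold change was 0.87 (SE 0.21, edgeR adjusted p = 0.0372). The call was lost in all 8 removals of a single library, with adjusted p from 0.0516 to 0.102 and log2 fold changes from 0.73 to 1.01. Those removals called 1.02% to 6.74% of all genes tested, against 5.4% with all libraries.

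In 3 members the genotypes did not overlap without a call. Over all 32 tested members 7 had every HOM library above every WT library and 2 had every HOM library below, where 6.63% and 7.47% of all genes tested did so, 14.1% together. Cdkn1c, the cyclin-dependent kinase inhibitor p57, had 5.34, 4.29, 4.53 and 5.54 CPM in HOM replicates 1 to 4, against 6.003, 6.36, 6.70 and 9.83 CPM in WT replicates 1 to 4. HOM lay below WT throughout, but the log2 fold change of -0.55 (SE 0.17) did not pass in edgeR (adjusted p = 0.0717), whereas DESeq2 gave -0.55 with an adjusted p of 0.0210. WT replicate 4 was the highest library for Cdkn1c and for the choroid plexus markers, and without it the log2 fold change was -0.36 (edgeR adjusted p = 0.152). With the choroid plexus markers as a covariate it was -0.18 (edgeR adjusted p = 0.751). Inpp5f, an inositol phosphatase gene, had 93.8, 96.2, 92.4 and 91.5 CPM in HOM replicates 1 to 4, against 102, 99.5, 110.4 and 108 CPM in WT replicates 1 to 4 (log2 fold change -0.17, SE 0.06, edgeR adjusted p = 0.113). Sgce, which encodes epsilon-sarcoglycan and is expressed from the paternal copy, had 29.1, 29.2, 29.3 and 29.5 CPM in HOM replicates 1 to 4, against 27.6, 27.3, 27.8 and 27.3 CPM in WT replicates 1 to 4. The 2 tight groups for Sgce differed by a log2 fold change of only 0.09 (SE 0.06, edgeR adjusted p = 0.409).

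**Figure D4:**
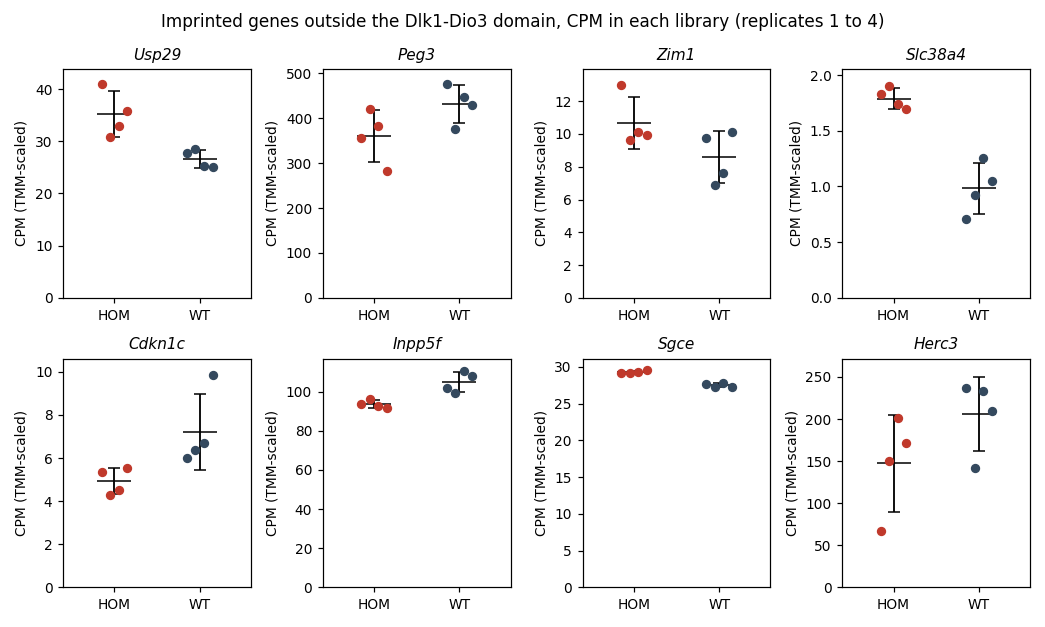
CPM (y axis) of 8 imprinted genes outside the Dlk1-Dio3 cluster in each HOM and WT library (x axis), points in the order of replicates 1 to 4, with the mean (long bar) and SD of 4 libraries. HOM lies wholly above WT for Usp29, Slc38a4 and Sgce and wholly below for Cdkn1c and Inpp5f, while Peg3, Zim1 and Herc3 overlap.

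The Prader-Willi and Angelman cluster was only partly measurable. Snrpn, a splicing factor gene expressed from the paternal copy, averaged 90.8 ± 8.16 CPM in HOM and 98.3 ± 10.6 CPM in WT (log2 fold change -0.11, SE 0.09). Ube3a, a ubiquitin ligase gene expressed from the maternal copy in neurons, averaged 137 ± 23.0 CPM in HOM and 141 ± 24.9 CPM in WT (log2 fold change -0.04, SE 0.14). Snhg14 and other genes share 43.1% of the Ube3a span, so reads of its antisense transcript were dropped or cannot be told apart. Ndn, Magel2 and Mkrn3 were at 0 in every library, and their whole spans lie inside the noncoding gene Gm32061, which itself had 14 counts in HOM and 6 in WT. Nnat was at 0 in the same way and lies inside Blcap. These zeros come with the counting, in which 98.5% of protein-coding genes that lie inside another gene were at 0, against 13.5% of the others, so they say nothing about expression.

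Igf2, H19 and Phlda2, growth-related members of the H19-Igf2 and Kcnq1ot1 clusters, were near or under the limit of counting, unlike Cdkn1c. Igf2 had 7 counts in all 8 libraries together, and 99.98% of its span is shared with other annotated genes. H19, the maternally expressed noncoding RNA beside it, had 3, 5, 1 and 3 counts in HOM replicates 1 to 4, against 1, 2, 4 and 6 counts in WT replicates 1 to 4. Phlda2, a placental growth regulator, had 9 counts in all. Igf2 and Phlda2 are thus the genes just inside the rule of at least 1 count, and the 4 genes at 0 are those just outside it. Neither Igf2, H19 nor Phlda2 was tested.

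Members in growth and hormone signalling showed no call. Igf2r, the receptor that clears Igf2, averaged 44.1 ± 3.87 CPM in HOM and 45.0 ± 3.66 CPM in WT, and Airn shares 32.5% of its span. Grb10, an adaptor of the insulin receptor, averaged 61.8 ± 4.02 CPM in HOM and 63.3 ± 4.56 CPM in WT. Gnas, the stimulatory G protein alpha subunit with several imprinted transcripts, averaged 214 ± 20.3 CPM in HOM and 234 ± 39.3 CPM in WT, with 44.1% of its span shared. Their log2 fold changes were -0.03, -0.04 and -0.12 in that order. Ddc, the decarboxylase that makes dopamine and serotonin, averaged 5.72 ± 0.773 CPM in HOM and 5.92 ± 0.732 CPM in WT (log2 fold change -0.05). Calcr, the calcitonin receptor gene, and Asb4, a gene of the ankyrin-repeat and SOCS-box family, were counted thinly. Calcr averaged 0.617 ± 0.313 CPM in HOM and 0.426 ± 0.207 CPM in WT (log2 fold change 0.54, SE 0.43). Asb4 averaged 0.249 ± 0.118 CPM in HOM and 0.408 ± 0.194 CPM in WT (log2 fold change -0.69, SE 0.45), the lowest value of the 32, and it did not pass (edgeR adjusted p = 0.383).

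The other members were moderately or well counted and did not pass. Blcap averaged 92.1 ± 5.55 CPM in HOM and 83.2 ± 4.51 CPM in WT (log2 fold change 0.15, SE 0.07, edgeR adjusted p = 0.208), with 3 of 4 HOM libraries above all WT libraries. Copg2, a coatomer subunit gene beside Mest, averaged 602 ± 88.9 CPM in HOM and 523 ± 44.9 CPM in WT (log2 fold change 0.20, SE 0.10, edgeR adjusted p = 0.254), whereas Mest, a paternally expressed hydrolase-like gene, averaged 46.9 ± 1.76 CPM in HOM and 50.5 ± 1.92 CPM in WT (log2 fold change -0.11, SE 0.06). Peg10, a retrotransposon-derived gene next to Sgce, averaged 30.4 ± 4.81 CPM in HOM and 30.5 ± 5.44 CPM in WT, with HOM at 99.9% of WT. Plagl1, a zinc finger gene, averaged 27.6 ± 4.43 CPM in HOM and 31.1 ± 4.36 CPM in WT (log2 fold change -0.17). Zdbf2 averaged 32.7 ± 3.91 CPM in HOM and 38.01 ± 4.80 CPM in WT (log2 fold change -0.22, SE 0.11, edgeR adjusted p = 0.242). Zdbf2 has a window with TGACGTCA, as named above, and the part of that match in its values was not tested. Trappc9, a vesicle trafficking gene, and Kcnk9, a tandem-pore potassium channel expressed from the maternal copy, are neighbours with log2 fold changes of 0.02 and -0.02. Impact, which restrains the stress kinase Gcn2, averaged 247 ± 10.4 CPM in HOM and 259.9 ± 16.7 CPM in WT (log2 fold change -0.08). Herc3, a ubiquitin ligase gene, had 66.8, 150.5, 201 and 172 CPM in HOM replicates 1 to 4, against 237, 142, 234 and 209 CPM in WT replicates 1 to 4. HOM replicate 1 was far below the rest, and the log2 fold change of -0.48 (SE 0.26) did not pass (edgeR adjusted p = 0.298). Without that library it was -0.23 (edgeR adjusted p = 0.497).

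Calls were also counted by parental origin, where 2.47% of all genes tested were higher. Of 12 tested members that background knowledge gives as paternally expressed 3 were higher, of 12 given as maternally expressed 2 were higher, and of 8 with mixed or tissue-dependent imprinting 1 was higher. The Rtl1 row, counted as paternal, may hold reads of the maternal strand, so these counts do not compare the parental copies. Among the 50 further imprinted genes, 35 were tested, 2 were higher and 1 was lower, where 2.47% and 2.94% of all genes tested were. Their median log2 fold change was -0.04. Beside Dio3 the higher gene was Slc22a3, a transporter of organic cations and monoamines in the Igf2r cluster, with 7.25, 6.82, 6.48 and 8.08 CPM in HOM replicates 1 to 4, against 4.57, 4.32, 5.01 and 5.71 CPM in WT replicates 1 to 4. Slc22a3 did not overlap, passed with a log2 fold change of 0.55 (SE 0.12, edgeR adjusted p = 0.0307) and kept its call in 2 of 8 removals of a single library. Phactr2, a regulator of actin and protein phosphatase 1 beside Plagl1, had 37.5, 34.2, 36.4 and 30.4 CPM in HOM replicates 1 to 4, against 44.3, 38.9, 44.8 and 56.5 CPM in WT replicates 1 to 4. It fell by 0.41 on the log2 scale (SE 0.11, edgeR adjusted p = 0.0481), a call kept in 1 of 8 removals, and WT replicate 4 was again the highest library. With the choroid plexus covariate its log2 fold change was -0.15 (edgeR adjusted p = 0.674).

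The libraries that stood apart bear on the counts of calls. Without HOM replicate 4, 3 members passed (Meg3, Mirg and B830012L14Rik), with log2 fold changes of 0.37, 0.39 and 0.96. Without WT replicate 4, 3 passed as well (Dlk1, Mirg and B830012L14Rik), and with both left out only B830012L14Rik did (0.92, edgeR adjusted p = 0.0306). These settings called 3.14%, 2.74% and 1.93% of all genes tested in that order, against 5.4% with all libraries. With the mean level of the choroid plexus markers as a covariate no member passed, and 43 of all genes tested (0.247%) did. These markers differed between the genotypes, all 7 tested reaching an unadjusted p under 0.05 (edgeR), so covariate and genotype cannot be fully separated. SEs rose under it, from 0.07 to 0.11 for Meg3, from 0.12 to 0.18 for Rtl1 and from 0.16 to 0.23 for B830012L14Rik. Under that covariate the log2 fold changes were 0.39 for Meg3, 0.48 for Rtl1, 0.51 for Mirg, 0.95 for B830012L14Rik, 0.51 for Usp29 and 0.80 for Slc38a4. Among members that had not passed, the log2 fold change under it was 1.02 for Dlk1, 0.70 for Zim1, 1.28 for Calcr, -0.90 for Herc3 and -0.18 for Cdkn1c.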

How the data were processed

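RNA-seq was compared between 4 HOM and 4 WT libraries, grouped by the genotype in the sample labels. The deposited values are raw read counts by gene, in whole numbers, that the authors did not normalize. Per the submitters' processing notes, the build was GRCm38 and the tools were FastQC 0.11.3, STAR, featureCounts and edgeR. The annotation release, the strand setting and the other versions are not stated in what was used here. Per the labels' protocols, libraries were stranded and paired-end from total RNA.

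Gene names and positions came from GENCODE M21, which held 54409 of the 54446 identifiers and missed 37. Of 1280 protein-coding genes nested in another gene 1261 stood at 0, against 2784 of 20638 not nested. Counts were therefore taken to cover whole gene bodies, introns included, without strand, and with reads shared by overlapping genes dropped. Genes that overlap others are uncertain, and the share of their span is given for those most affected.

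The test was that of edgeR 4.0.16, run in R 4.3.3 on the counts (glmQLFit and glmQLFTest, robust option off) after TMM scaling. The filter filterByExpr kept genes with about 10 counts in 4 libraries and 15 in all. P-values were adjusted over the 17395 tested genes by Benjamini-Hochberg, and 0.05 was the threshold. The common dispersion was 0.0138. TMM factors were 1.017 to 1.030 in HOM and 0.961 to 0.988 in WT. Levels are CPM on TMM-scaled library sizes. Depth was 27993412 to 37538988 counts, and libraries of the same genotype differed beyond sampling noise, so depth alone does not set the precision. The test was tried on simulated data first. Shares of counts were compared by exact two-sided permutation over the 70 relabellings. That comparison was not among the planned results, and it treats the libraries as independent, which the labels do not establish.

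The members and gene lists were chosen with earlier results of these data known. Values in every library are given for members of the Dlk1 domain and for members past the threshold or without overlap. Of further imprinted and flanking genes, those past the threshold and Dio3 are named. Zim1, Peg3, Herc3, H19, Dio3os, Malat1, Neat1, Miat, Snhg11 and the microRNA rows were added after their values were seen.

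All 12 pairs of libraries of the same genotype differed beyond sampling noise (chi-square per degree of freedom at least 7.04). Same-numbered HOM and WT libraries had correlations of deviations of 0.09, -0.35, 0.01 and 0.06. Those of different numbers ran from -0.39 to 0.44, so these values cannot decide whether the numbers pair the samples. Alternatives were RLE, upper-quartile and library-total scaling, DESeq2 1.42.0, limma-voom (limma 3.58.1), no filter, a filter of 1 CPM in 4 libraries, a block on replicate number, a choroid plexus covariate, and removal of libraries. The view over all rows from Dlk1 to Dio3 was chosen after seeing the data. Promoter and microRNA sequences are from RefSeq (GRCm38.p6).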

Additional observations from a re-analysis of the deposited data

Results flagged for a closer look

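Within groups of 4 libraries, a library was picked out where its gap to the nearest of the others was a large part of the range of its group (Dixon's test at the 95% level). Over 38 genes and 76 groups this picked out 5 values, and chance picks out about 1 group in 20. Meg3 was low in WT replicate 4, at 2982 CPM, where the other WT libraries had 3262 to 3286 CPM. B830012L14Rik was high in WT replicate 3, at 3.40 CPM, where the other WT libraries had 2.51 to 2.57 CPM. Zim1 was high in HOM replicate 1, at 13.003 CPM, where the other HOM libraries had 9.63 to 10.1 CPM. Grb10 was low in WT replicate 2, at 56.5 CPM, where the other WT libraries had 65.2 to 66.0 CPM. Hsp90aa1 was high in HOM replicate 2, at 899 CPM, where the other HOM libraries had 814 to 817 CPM.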

How the results depend on the processing

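The 6 imprinted genes higher in HOM became 1 with the replicate block, 0 with the choroid plexus covariate, 1 with HOM replicate 4 and WT replicate 4 both left out, and 1 to 5 with each library left out in turn. None was lower, but DESeq2 called 1, Cdkn1c. The 2 further imprinted genes that were higher became 1, 0 and 1 under the same 3 settings and 1 to 2 with a library left out. The 1 that was lower became 0 with upper-quartile scaling, library totals, the filter of 1 CPM, the block, the covariate and both libraries left out, 3 with DESeq2, 4 with no filter, and 0 to 3 with a library left out. With limma-voom the count was again 1, but it was not Phactr2 (adjusted p = 0.0511). The 2 flanking calls became 1 with upper-quartile scaling, library totals, the filter of 1 CPM, the block and both libraries left out, 0 with the covariate, and 1 to 2 with a library left out. The cause was not tested. Scn2a passed throughout, from -1.87 to -1.69. Whether the numbers pair the samples is not known, and the block kept B830012L14Rik alone of the 6 members.

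Signs turned only for members near 0, none of them called. Begain gave 0.0244 with library totals and -0.10 to 0.0512 with a library left out. Ube3a gave 0.028 with library totals, 0.0335 with both libraries left out and -0.14 to 0.0848 with a library left out. Igf2r gave 0.0338 with library totals, 0.0697 with the covariate, 0.0495 with both left out and -0.0849 to 0.0429 with a library left out. Grb10 gave 0.0305 with library totals, 0.027 with both left out and -0.0868 to 0.0212 with a library left out. Ddc gave 0.016 with library totals, 0.0283 with the covariate, 0.0938 with both left out and -0.13 to 0.0362 with a library left out. Peg10 gave 0.0001 with RLE, 0.0266 with upper-quartile scaling, 0.0605 with library totals, 0.0011 with DESeq2, 0.0069 with no filter, 0.015 with the filter of 1 CPM, 0.20 with the covariate, 0.21 with both left out and -0.0822 to 0.12 with a library left out. Trappc9 gave -0.006 to 0.066 with a library left out. Kcnk9 gave 0.0106 with upper-quartile scaling, 0.0458 with library totals, 0.0068 with both left out and -0.075 to 0.0712 with a library left out. Asb4, Calcr and Mir544 had too few counts for the filter of 1 CPM and got no adjusted p from DESeq2.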

Other observations

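Further imprinted genes near the threshold were named here after their values were seen. Ppp1r9a, which encodes the actin-binding protein neurabin and is expressed in brain, averaged 331 CPM in HOM and 425 CPM in WT (log2 fold change -0.36, edgeR adjusted p = 0.05001, just above the threshold). Adam23, a partner of the Lgi proteins at synapses, averaged 165 CPM in HOM and 210.4 CPM in WT (log2 fold change -0.35, edgeR adjusted p = 0.0675). Airn, the noncoding RNA that overlaps Igf2r, averaged 8.15 CPM in HOM and 6.26 CPM in WT without overlap between libraries (log2 fold change 0.38, edgeR adjusted p = 0.0759), and 51.6% of its span is shared with other genes. Within the Dlk1-Dio3 domain, Gm37899, which lies between Rian and B830012L14Rik, averaged 8.17 ± 0.670 CPM in HOM and 5.48 ± 1.52 CPM in WT (SD, n = 4 each), also without overlap (log2 fold change 0.58, edgeR adjusted p = 0.0664).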
